A study of Mus musculus with 6 samples.

Results

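The genes described here encode S100 proteins, small calcium-binding proteins with EF-hand domains. They are the 10 genes *S100a1*, *S100a4*, *S100a6*, *S100a8*, *S100a9*, *S100a10*, *S100a11*, *S100a13*, *S100a16* and *S100b*, chosen by symbol from the 17854 genes of the deposited table, in which 15 symbols belong to the S100 family. All 10 passed the expression filter that left 14289 genes for testing. Bulk RNA-seq was made of Tomato+ cells sorted from collagenase-digested knee cartilage of male C57BL/6 mice, and the samples carry the cell type label chondrocyte. The Inject Prrx group (3 libraries) holds Tomato+ cells recovered from repaired articular cartilage after *Prrx1*-lineage MSCs from inguinal white adipose tissue were injected into knees with osteoarthritis induced by ligament surgery. These MSCs came from *Prrx1-Cre; R26tdTomato* donors and the host mice carried no label of their own. The Native Prrx group (3 libraries) holds endogenous articular Tomato+ cells of age- and sex-matched *Prrx1-Cre; R26tdTomato* mice. The study used 3 mice for each group. Cre driven by *Prrx1*, a gene of limb mesenchyme, switches on tdTomato for good, so the label marks descent and not a present cell type. Surgery, injection and the origin of the cells all differ between the groups and cannot be told apart here.

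S100 proteins mostly work as dimers that change shape when they bind calcium and then grip a target protein. *S100a8* and *S100a9* encode the subunits of calprotectin, a major protein of the neutrophil cytosol that is also made by monocytes and acts on receptors such as TLR4 and RAGE once released. *S100b* and *S100a1* are chondrocyte genes downstream of the SOX transcription factors of cartilage, *S100b* being also a marker of glia and *S100a1* of striated muscle. The comparison of the Inject Prrx with the Native Prrx libraries asks how far these cartilage and myeloid members, and the more widely expressed ones, differ between the groups.

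In the Inject Prrx libraries the myeloid pair was higher by more than 20 times, *S100b* was lower by more than 9 times and *S100a1* differed by less than its error. Of the 10 genes, 4 were higher (*S100a8*, *S100a9*, *S100a11*, *S100a6*), 3 were lower (*S100b*, *S100a10*, *S100a16*) and 3 were not called (*S100a1*, *S100a13*, *S100a4*). A gene was called where its adjusted p in the quasi-likelihood test of edgeR was at most 0.05. Among all genes tested, 31.3% were higher and 30.3% lower, so the counts of 4 and 3 of 10 lie near the background. The median log2 fold change was 0.04 over the 10 genes and 0.05 over all genes tested. Counts relative to library size, scaled by the TMM factors of edgeR and given as CPM, did not overlap between the groups for 7 of the 10 genes, against 72.4% of all genes tested. The deposited TPM, which also corrects for transcript length, did not overlap for 9 of them, 3 higher and 6 lower, against 72.6% of all genes tested, 25.2% higher and 47.4% lower. In a limma test on log2(TPM + 1), where the median of all genes lay at -0.31, 3 of the 10 were higher and 6 lower, against 22.8% and 43.3% of the 12829 genes tested there.

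Expected counts summed to between 22060628 and 24881796 per library, and the floor of 3 counts was 0.121 to 0.136 CPM, which covers counting error only. Native Prrx replicate 1 stood apart. It had 3449 genes at 0 counts, against 1323 and 1375 in the other Native Prrx libraries, and a chi-square per gene of 50.1 and 47.6 to them. The chi-square per gene was 4.89 between those other libraries and 3.61 to 3.97 between the Inject Prrx libraries. All 10 genes had their lowest Native Prrx CPM in Native Prrx replicate 1. The share of all genes that did so was not computed, so this cannot be read as a trait of the S100 genes. Without Native Prrx replicate 1, 4 of the 10 genes were higher and 5 lower, and the shares among all genes also grew, to 37.8% and 38.6%. The biological coefficient of variation was 35.3% in the Native Prrx group and 6.77% in the Inject Prrx group.

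In the RefSeq annotation of GRCm38.p6, 9 of the 10 genes lie on chromosome 3, in the order *S100a1*, *S100a13*, *S100a16*, *S100a4*, *S100a6*, *S100a8*, *S100a9*, *S100a11* and *S100a10*, and *S100b* lies on chromosome 10. *S100a8* and *S100a9* are neighbours, as are *S100a11* and *S100a10*. The annotated spans of *S100a1* and *S100a13* overlap on opposite strands, and whether their exons overlap was not examined. The library kit does not mark strand, so reads in any shared exon cannot be assigned by strand. The expected counts of both genes were whole in every library, so the counts show no division of reads between them. RefSeq promoter windows, from 250 bases before to 50 bases after a start, were found for 9 of the 10 genes, with none for *S100a10*. The windows of the cartilage and myeloid members are shown here because the contrast turns on them, each 5′ to 3′ along its gene. Capitals mark TATAAA and TTGCNNAA matches in *S100a8* and *S100a9*, an ACAANG match on the opposite strand in *S100b*, and in *S100a1* the 204 bases shared with the window of *S100a13*.
S100a8, GRCm38.p6 chr3:90668821-90669120, plus strand: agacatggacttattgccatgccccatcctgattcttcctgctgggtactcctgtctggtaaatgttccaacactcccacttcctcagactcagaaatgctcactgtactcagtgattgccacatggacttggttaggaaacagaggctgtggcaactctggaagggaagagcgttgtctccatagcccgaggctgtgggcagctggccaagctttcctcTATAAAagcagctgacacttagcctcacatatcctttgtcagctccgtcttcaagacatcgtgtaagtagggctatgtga
S100a9, GRCm38.p6 chr3:90695672-90695971, minus strand: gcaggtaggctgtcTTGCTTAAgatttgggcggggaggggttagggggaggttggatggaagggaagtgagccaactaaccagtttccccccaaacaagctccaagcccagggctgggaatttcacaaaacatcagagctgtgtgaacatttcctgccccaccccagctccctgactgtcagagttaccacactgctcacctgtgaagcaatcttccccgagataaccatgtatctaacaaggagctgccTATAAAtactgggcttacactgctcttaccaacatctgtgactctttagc
S100a1, GRCm38.p6 chr3:90514281-90514580, minus strand: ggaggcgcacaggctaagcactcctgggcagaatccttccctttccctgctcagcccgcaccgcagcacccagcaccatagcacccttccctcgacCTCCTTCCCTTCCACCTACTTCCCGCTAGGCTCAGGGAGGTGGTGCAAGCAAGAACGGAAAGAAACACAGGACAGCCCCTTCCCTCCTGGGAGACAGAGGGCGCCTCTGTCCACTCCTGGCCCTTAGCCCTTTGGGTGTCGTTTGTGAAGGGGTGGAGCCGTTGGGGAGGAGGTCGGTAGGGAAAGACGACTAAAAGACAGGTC
S100b, GRCm38.p6 chr10:76253586-76253885, plus strand: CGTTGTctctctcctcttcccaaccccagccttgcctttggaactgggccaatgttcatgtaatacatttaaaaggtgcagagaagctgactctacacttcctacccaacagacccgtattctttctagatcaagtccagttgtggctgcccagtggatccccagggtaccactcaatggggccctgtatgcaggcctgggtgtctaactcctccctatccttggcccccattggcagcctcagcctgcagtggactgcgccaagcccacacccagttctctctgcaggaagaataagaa

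A TATAAA match on either strand was found in 13.6% of all 32851 windows and in 3 of the 10 windows of these genes (*S100a16* has a pair of windows). It lay at position -30 in *S100a8*, at position 1 in *S100a9* and at position -31 in *S100a4*, counted from the annotated start. The C/EBP letters TTGCNNAA, searched on both strands, were found in 10.8% of all windows and in 1 of the 10, that of *S100a9* at position -236. The SOX letters ACAANG were found in 41.2% of all windows and in 5 of the 10. *S100b* holds 1 such match at position -250, *S100a8* holds 2, *S100a9* holds 1 at position -13, and *S100a1* and *S100a13* hold 0. The SOX matches in *S100a8* and *S100a9* are not in capitals above. The PU.1 letters GAGGAA were found in 28.3% of all windows and in 4 of the 10, *S100a8* holding 2. These are matches of letters only.

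*S100a8* had 91444, 96554 and 100829 TPM in the Inject Prrx libraries and 4152, 4985 and 6403 TPM in the Native Prrx libraries. The groups did not overlap, and *S100a8* was the gene with the highest TPM in every Inject Prrx library, compared with ranks 26, 23 and 14 in the Native Prrx libraries. In CPM the means were 15579 ± 998 (SD, n = 3) and 631 ± 161 (SD, n = 3), a log2 fold change of 4.63 ± 0.20 (SE, adjusted p = 9.40e-07 in edgeR), or 24.7-fold. In bulk samples like these, more cells of a type and more RNA per cell cannot be told apart, for this and every other gene below. Its short effective length of 205 to 219 bases raises its TPM, so that it took 9.14% to 10.1% of the TPM but 1.51% to 1.71% of the counts of the Inject Prrx libraries. In the Native Prrx libraries these shares were 0.415% to 0.640% and 0.0459% to 0.0763%.

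*S100a9*, the partner of *S100a8* in calprotectin, had 12988, 13181 and 13430 TPM in the Inject Prrx libraries and 590.2, 877.9 and 1047 TPM in the Native Prrx libraries. Every Inject Prrx library was above every Native Prrx library, and the lowest value was that of Native Prrx replicate 1. The CPM were 3475 ± 98.8 (SD, n = 3) and 165.9 ± 53.1 (SD, n = 3), a log2 fold change of 4.39 ± 0.25 (SE, adjusted p = 3.88e-06 in edgeR), or 20.9-fold. Without Native Prrx replicate 1 the log2 fold changes of *S100a8* and *S100a9* were 4.40 and 4.10. The ratio of *S100a8* to *S100a9* in TPM was 7.04, 7.33 and 7.51 in the Inject Prrx libraries and 7.03, 5.68 and 6.12 in the Native Prrx libraries. The highest Native Prrx ratio lay just below the lowest Inject Prrx ratio.

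**Figure D1:**
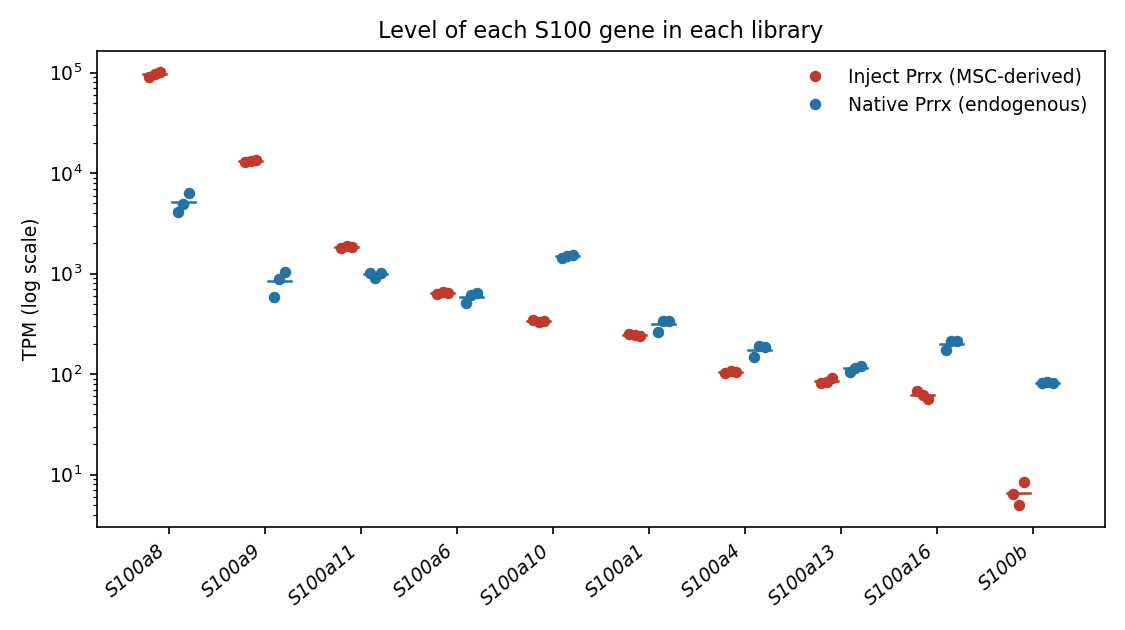
TPM of the 10 S100 genes on a log scale, with 1 point for each library (red, Inject Prrx; blue, Native Prrx) and a line at each group mean. *S100a8* lies at 91444 TPM or more in the 3 Inject Prrx libraries and at 6403 or less in the 3 Native Prrx libraries, and *S100b* lies below 10 TPM in the Inject Prrx libraries and above 80 in the others.

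*S100b*, which encodes a homodimeric protein of chondrocytes and glia, had 6.42, 4.98 and 8.38 TPM in the Inject Prrx libraries and 81.0, 83.0 and 82.6 TPM in the Native Prrx libraries. All Inject Prrx libraries were below all Native Prrx libraries, and the Native Prrx values lay within 3 TPM of each other. From 139 to 222 counts lay behind the Inject Prrx values and 1425 to 1740 behind the Native Prrx values. The CPM were 7.59 ± 2.01 (SD, n = 3) and 69.8 ± 6.09 (SD, n = 3), a log2 fold change of -3.20 ± 0.20 (SE, adjusted p = 7.16e-06 in edgeR), or 9.20-fold lower. It was the lowest of the 10 genes in TPM in both groups.

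*S100a1*, which encodes a protein that binds sarcoplasmic calcium pumps and channels in muscle and is also made by chondrocytes, had 252.6, 244.2 and 237.2 TPM in the Inject Prrx libraries and 265.7, 337.1 and 339.7 TPM in the Native Prrx libraries. In TPM the Inject Prrx libraries were the lower ones, without overlap. In CPM the libraries overlapped, with 83.7, 81.6 and 80.2 CPM in Inject Prrx and 61.1, 87.2 and 87.2 CPM in Native Prrx. The log2 fold change was 0.06 ± 0.14 (SE, adjusted p = 0.735 in edgeR), and its sign depended on the scaling and on 1 library. Without Native Prrx replicate 1 it was -0.15 (adjusted p = 0.0281 in edgeR), and on log2(TPM + 1) it was -0.35 (adjusted p = 0.0207 in limma), or -0.04 relative to the median of all genes. Of the cartilage members, *S100b* was therefore called lower and *S100a1* was not called, and their ratio in TPM, *S100a1* over *S100b*, was 39.3, 49.0 and 28.3 in the Inject Prrx libraries and 3.28, 4.06 and 4.11 in the Native Prrx libraries.

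*S100a13* encodes a protein that takes part in the release of FGF1 and interleukin-1 alpha, which lack signal peptides. It had 81.5 to 92.0 TPM in the Inject Prrx libraries and 105.7 to 121.0 TPM in the Native Prrx libraries, again lower without overlap in TPM. In CPM it had 34.0 to 38.9 and 30.0 to 38.7, and the log2 fold change was 0.02 ± 0.13 (SE, adjusted p = 0.891 in edgeR). On log2(TPM + 1) it was -0.41 (adjusted p = 0.00424 in limma), or -0.10 relative to the median of all genes. The annotated span of *S100a13* overlaps that of *S100a1*. The ratio of *S100a1* to *S100a13* in TPM overlapped between the groups, at 2.58 to 3.10 and 2.51 to 2.90.

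The log2 ratio of *S100a8* plus *S100a9* to *S100a1* plus *S100b* in TPM, which does not depend on scaling between libraries, was 8.66, 8.78 and 8.86 in the Inject Prrx libraries and 3.77, 3.80 and 4.14 in the Native Prrx libraries. The myeloid members exceeded the cartilage members in all 6 libraries, and the groups differed by 4.86 on the log2 scale. The sum of *S100a8* and *S100a9* was 104430 to 114260 TPM in Inject Prrx and 4742 to 7449 TPM in Native Prrx. The sum of *S100a1* and *S100b* was 245.6 to 259.0 TPM and 346.7 to 422.3 TPM. Most of this sum was *S100a1*, with means of 244.7 TPM in Inject Prrx and 314.2 TPM in Native Prrx, against 6.59 and 82.2 TPM for *S100b*. The larger part of the difference in the ratio of the sums therefore came from the myeloid members, and the fall of *S100b* weighs little in it.

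**Figure D2:**
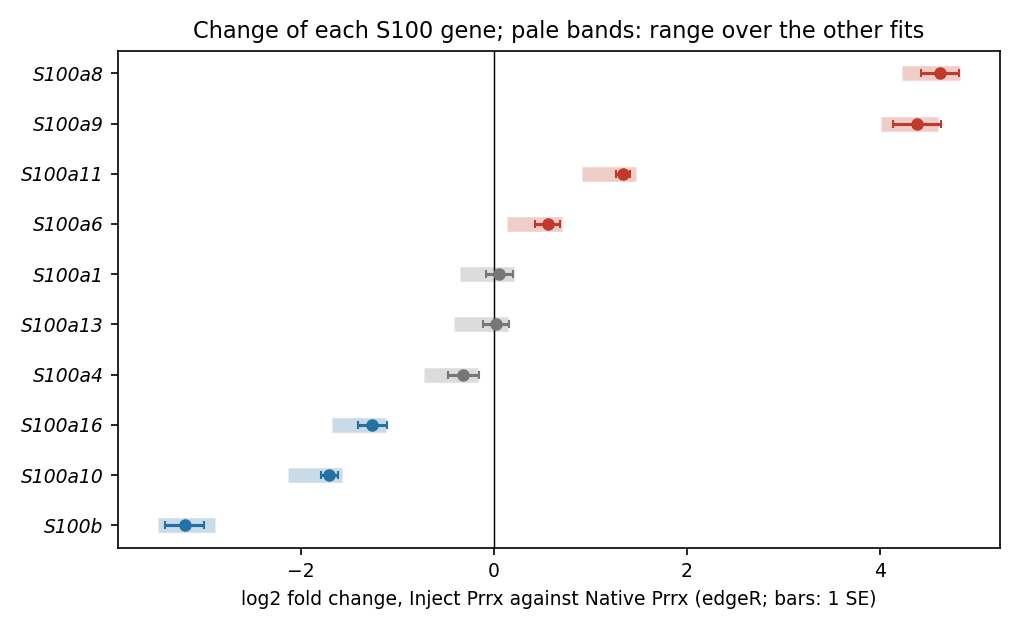
Log2 fold change of each S100 gene in edgeR, Inject Prrx against Native Prrx, with bars of 1 standard error and pale bands for the range over 19 other fits (red, higher; blue, lower; grey, not called). The bands of *S100a1* and *S100a13* cross 0, from -0.35 to 0.21 and from -0.41 to 0.15, and those of the other genes do not.

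*S100a10* and *S100a11* are neighbours on the chromosome and both encode partners of annexins, and they moved in opposite directions. *S100a10*, whose protein is locked in an active form without calcium and joins annexin A2, had 348.0, 334.0 and 336.1 TPM in the Inject Prrx libraries and 1432, 1508 and 1523 TPM in the Native Prrx libraries. All Inject Prrx values were lower, with a log2 fold change of -1.70 ± 0.09 (SE, adjusted p = 2.37e-06 in edgeR), or 3.26-fold lower.

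*S100a11*, the partner of annexin A1, had 1817, 1891 and 1835 TPM in the Inject Prrx libraries and 1005, 913.8 and 1027 TPM in the Native Prrx libraries. All Inject Prrx values were higher, with a log2 fold change of 1.34 ± 0.07 (SE, adjusted p = 3.46e-06 in edgeR), or 2.53-fold. It was the only one of the 10 genes with expected counts that were not whole, so reads had been divided between it and another sequence and its level carries that uncertainty. *S100a11* over *S100a10* in TPM was 5.22 to 5.66 in Inject Prrx and 0.606 to 0.702 in Native Prrx, so their order turned between the groups.

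**Figure D3:**
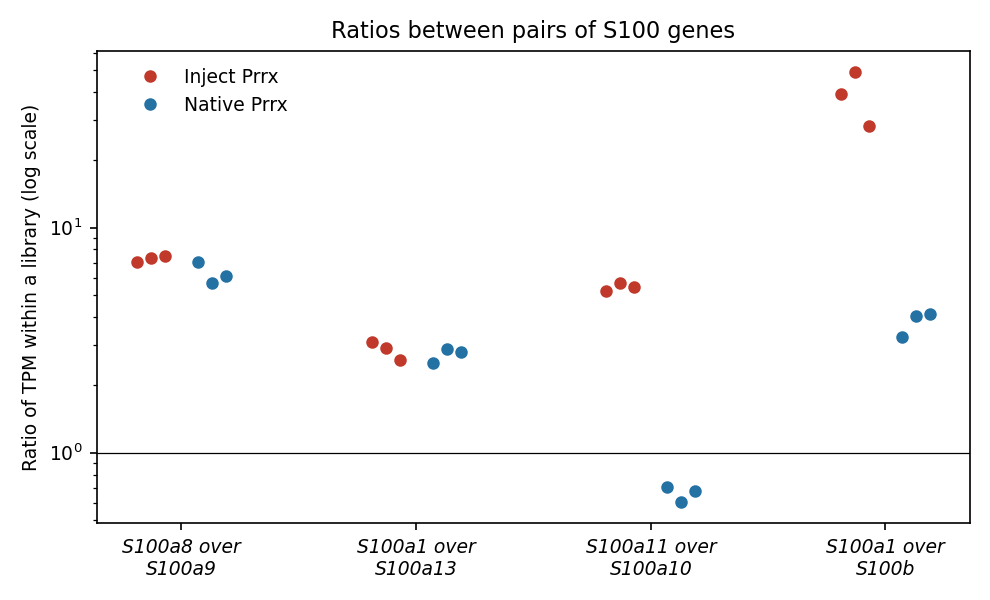
Ratio of TPM within a library for 4 pairs of S100 genes, on a log scale, with 1 point for each library. *S100a1* over *S100a13* overlaps between the groups, whereas *S100a11* over *S100a10* lies above 5 in the Inject Prrx and below 1 in the Native Prrx libraries.

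*S100a16*, a widely expressed member, had 67.9, 61.6 and 56.1 TPM in the Inject Prrx libraries and 175.8, 213.2 and 212.4 TPM in the Native Prrx libraries. All Inject Prrx values were lower, with a log2 fold change of -1.26 ± 0.15 (SE, adjusted p = 0.000247 in edgeR), or 2.39-fold lower.

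*S100a6* encodes calcyclin, a protein of proliferating cells and fibroblasts. It had 259.0, 272.6 and 268.3 CPM in the Inject Prrx libraries and 143.8, 195.7 and 202.9 CPM in the Native Prrx libraries, all Inject Prrx values being higher. The log2 fold change was 0.56 ± 0.13 (SE, adjusted p = 0.00725 in edgeR). In TPM the groups overlapped, at 628.5 to 657.2 and 505.7 to 636.5, and on log2(TPM + 1) the change was 0.14 (adjusted p = 0.21 in limma), or 0.45 relative to the median of all genes.

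*S100a4*, a binder of non-muscle myosin and a common marker of fibroblasts that is also made by macrophages, had 24.8, 26.6 and 25.9 CPM in the Inject Prrx libraries and 25.1, 36.3 and 34.9 CPM in the Native Prrx libraries. Native Prrx replicate 1 lay among the Inject Prrx values. The log2 fold change was -0.31 ± 0.16 (SE, adjusted p = 0.125 in edgeR), and -0.52 without Native Prrx replicate 1 (adjusted p = 4.55e-05 in edgeR). In TPM it had 102.9 to 108.7 and 147.7 to 191.6, lower without overlap, with -0.72 on log2(TPM + 1) (adjusted p = 0.00079 in limma), or -0.41 relative to the median of all genes.

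The 10 genes together held 10.8%, 11.3% and 11.8% of the TPM of the Inject Prrx libraries and 0.846%, 0.984% and 1.16% of the TPM of the Native Prrx libraries. *S100a8* and *S100a9* made up 96.9% to 97.2% of this sum in Inject Prrx and 56.0% to 64.3% in Native Prrx. The other 8 genes summed to 3305 to 3385 TPM in Inject Prrx and 3719 to 4128 TPM in Native Prrx, without overlap. This difference in TPM was a log2 ratio of -0.24 between the group means. The median of all genes also lay lower, at -0.31 in the limma test on log2(TPM + 1), which is a different measure. In CPM the sums of these 8 genes overlapped, at 1024 to 1053 and 929 to 1163. In TPM the order in the Inject Prrx libraries was *S100a8*, *S100a9*, *S100a11*, *S100a6*, *S100a10*, *S100a1*, *S100a4*, *S100a13*, *S100a16* and *S100b*, and no neighbours overlapped. In the Native Prrx libraries it was *S100a8*, *S100a10*, *S100a11*, *S100a9*, *S100a6*, *S100a1*, *S100a16*, *S100a4*, *S100a13* and *S100b*. There the ranges of *S100a11* and *S100a9*, of *S100a9* and *S100a6*, and of *S100a16* and *S100a4* overlapped. Within each Native Prrx library, *S100a9* lay above *S100a6* and *S100a16* above *S100a4*. The order of *S100a11* and *S100a9* differed between these libraries, with 1005 and 590.2 TPM in replicate 1 and 1027 and 1047 TPM in replicate 3.

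**Figure D4:**
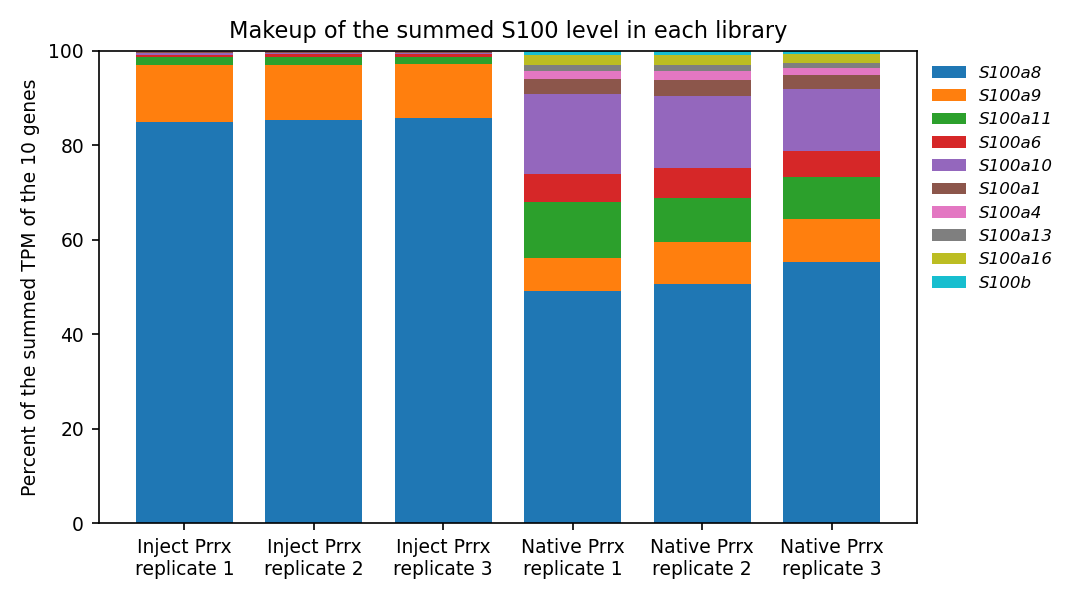
Share of each of the 10 S100 genes in their summed TPM, in percent, with 1 bar for each library. *S100a8* and *S100a9* fill 96.9% to 97.2% of the Inject Prrx bars and 56.0% to 64.3% of the Native Prrx bars, where *S100a10* and *S100a11* take most of the rest.

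Of the other S100 genes in the table, *S100a3*, a gene of the hair cuticle, was lower with a log2 fold change of -1.24 ± 0.41 (SE, adjusted p = 0.0321 in edgeR), on at most 36 counts in any Inject Prrx and 70 in any Native Prrx library. *S100a7a* was not called (log2 fold change 0.33, adjusted p = 0.660 in edgeR). *S100a5*, *S100a14* and *S100g* had at most 14 counts in any library and were too low to test. *S100pbp*, which encodes an S100 binding protein and is no S100 gene itself, was lower by 1.18 on the log2 scale (adjusted p = 0.00756 in edgeR).

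Among 25 genes for receptors and binding partners of S100 proteins, 24 were tested, with a median log2 fold change of 0.06. Of these 24, 10 were higher, 9 lower and 5 not called, against 31.3% higher and 30.3% lower among all genes tested. Of the receptors of calprotectin, *Tlr4*, the endotoxin receptor, rose from 3.24 to 3.58 TPM in Native Prrx to 18.1 to 18.4 TPM in Inject Prrx, a log2 fold change of 2.87 ± 0.10 (SE, adjusted p = 4.38e-07 in edgeR). *Cd36*, a scavenger receptor, and *Cd33*, a lectin of myeloid cells, were higher by 2.93 and 4.27 on the log2 scale. *Ager*, which encodes RAGE, a receptor of many S100 proteins, was lower, with a log2 fold change of -1.88 ± 0.41 (SE, adjusted p = 0.00512 in edgeR) on at most 40 counts in any Inject Prrx and 112 in any Native Prrx library. *Bsg*, which encodes basigin, and *Ncam1*, an adhesion molecule, had log2 fold changes of -0.62 and -1.98.

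Of the annexins, *Anxa1* was higher, *Anxa2* and *Anxa6* were lower and *Anxa11* was not called. *Anxa1*, the partner of *S100a11*, had 1201 to 1263 TPM in Inject Prrx and 806.2 to 1025 TPM in Native Prrx, a log2 fold change of 0.90 ± 0.07 (SE, adjusted p = 1.50e-05 in edgeR). *Anxa2*, the partner of *S100a10*, had 595.1 to 612.9 TPM and 936.3 to 1188 TPM, a log2 fold change of -0.41 ± 0.13 (SE, adjusted p = 0.0283 in edgeR). *Anxa2* over *S100a10* in TPM was 1.74 to 1.82 in Inject Prrx and 0.654 to 0.788 in Native Prrx, and *Anxa1* over *S100a11* was 0.655 to 0.688 and 0.852 to 1.02. *Ahnak*, a giant scaffold bound by the complex of *S100a10* and annexin A2, had a log2 fold change of -1.88. *Anxa6* had -0.28, and *Anxa11*, which binds calcyclin, the product of *S100a6*, had -0.10.

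Of the partners inside the cell, *Myh9*, a non-muscle myosin bound by S100A4, *Capzb*, an actin capping protein, *Stk38*, a kinase, and *Iqgap1*, a scaffold, were higher by 1.19, 1.53, 1.14 and 0.83 on the log2 scale. *Il1a* and *Fgf1*, the cargoes of S100A13, were higher by 6.35 and 0.43, *Il1a* from 0.66 to 2.70 TPM in Native Prrx to 93.8 to 99.2 TPM in Inject Prrx, whereas the TPM of *Fgf1* overlapped. *Sphk1*, a sphingosine kinase, *Atp2a2*, the calcium pump bound by S100A1, and *Mdm2*, the ubiquitin ligase of p53, had log2 fold changes of -2.83, -1.24 and -0.33. *Cacybp* and *Sugt1*, binders of calcyclin, *Trp53* and *Ryr1* were not called, and *Syt1* was too low to test.

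Of the regulators of *S100a8* and *S100a9*, 5 of 9 were higher, 3 lower and 1 was not called. Among all genes tested, 31.3% were higher and 30.3% lower. *Spi1*, which encodes the myeloid factor PU.1, had 339.6 to 369.7 TPM in Inject Prrx and 24.0 to 37.6 TPM in Native Prrx, a log2 fold change of 3.99 ± 0.13 (SE, adjusted p = 2.93e-07 in edgeR). *Cebpe*, the factor of late granulocyte maturation, had 75.0 to 76.0 TPM and 5.39 to 8.02 TPM, a log2 fold change of 3.95 ± 0.14 (SE, adjusted p = 4.04e-07 in edgeR). *Irf7*, *Cebpa* and *Cebpb* were higher by 1.92, 0.85 and 0.80. *Hif1a*, *Cebpd* and *Stat3* had log2 fold changes of -1.79, -1.36 and -0.89, and *Klf5* was not called at -0.25.

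All 3 genes of the SOX trio of chondrocytes were lower. *Sox9*, the master factor of cartilage, had 12.5 to 14.3 TPM in Inject Prrx and 567.5 to 712.1 TPM in Native Prrx, a log2 fold change of -5.10 ± 0.09 (SE, adjusted p = 3.39e-08 in edgeR). *Sox5* and *Sox6*, its partners, had log2 fold changes of -2.54 and -2.29. *S100b* and *Sox9* were thus both lower, and *S100a1* was not called. Relative to *Col2a1*, the type II collagen gene, *S100b* had 42.1 to 66.6 TPM per 1000 TPM of *Col2a1* in Inject Prrx and 5.76 to 6.68 in Native Prrx, and *S100a1* had 1886 to 2135 and 18.9 to 27.5.

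Markers of leukocytes were higher in the Inject Prrx libraries, as *S100a8* and *S100a9* were. All 17 neutrophil granule genes were higher (median log2 fold change 3.49), and their summed TPM was 47097 to 48473 in Inject Prrx and 3979 to 4713 in Native Prrx. The highest of them were *Ngp*, *Camp*, *Retnlg* and *Lcn2*, higher by 4.06, 4.56, 3.32 and 4.21 on the log2 scale. *S100a8* over *Ngp*, another abundant neutrophil gene, was 5.26 to 5.90 in TPM in Inject Prrx and 3.35 to 4.12 in Native Prrx, and *S100a9* over *Camp* overlapped, at 0.957 to 1.03 and 0.894 to 1.21. All 15 macrophage genes tested were higher (median 8.21), with a summed TPM of 26380 to 27162 against 758.0 to 960.6, and so were all 8 pan-leukocyte genes (median 4.16), with 3802 to 3856 TPM against 218.5 to 284.7 TPM. *Ptprc*, which encodes CD45, had 91.1 to 97.0 TPM in Inject Prrx and 5.12 to 10.6 TPM in Native Prrx. The part of leukocyte RNA in the levels of *S100a8* and *S100a9* was not tested.

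All 14 cartilage matrix genes were lower in the Inject Prrx libraries (median log2 fold change -6.44), with a summed TPM of 2884 to 2982, against 44716 to 49141 in Native Prrx. The highest of them were *Chad*, *Col2a1*, *Comp* and *Prg4*, with log2 fold changes of -4.61, -6.30, -3.93 and -0.51. *Col2a1* and *Acan*, defining markers of the label chondrocyte, were thus low in the Inject Prrx libraries, at 118.3 to 125.8 and 3.60 to 3.89 TPM. *Prg4* and *Chad* had 1974 to 2051 and 465.6 to 488.1 TPM there. The paper reports by immunostaining that most Tomato+ cells at the articular surface held Col2α1 protein. It also reports chondrocyte genes among those expressed in the recovered cells. All 8 fibroblast genes (median -2.17) and all 7 osteoblast genes (median -5.55) were lower too. The osteoblast genes summed to 36729 to 55211 TPM in the Native Prrx libraries, of which *Bglap*, osteocalcin, took most, so these held bone transcripts beside cartilage ones.

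**Figure D5:**
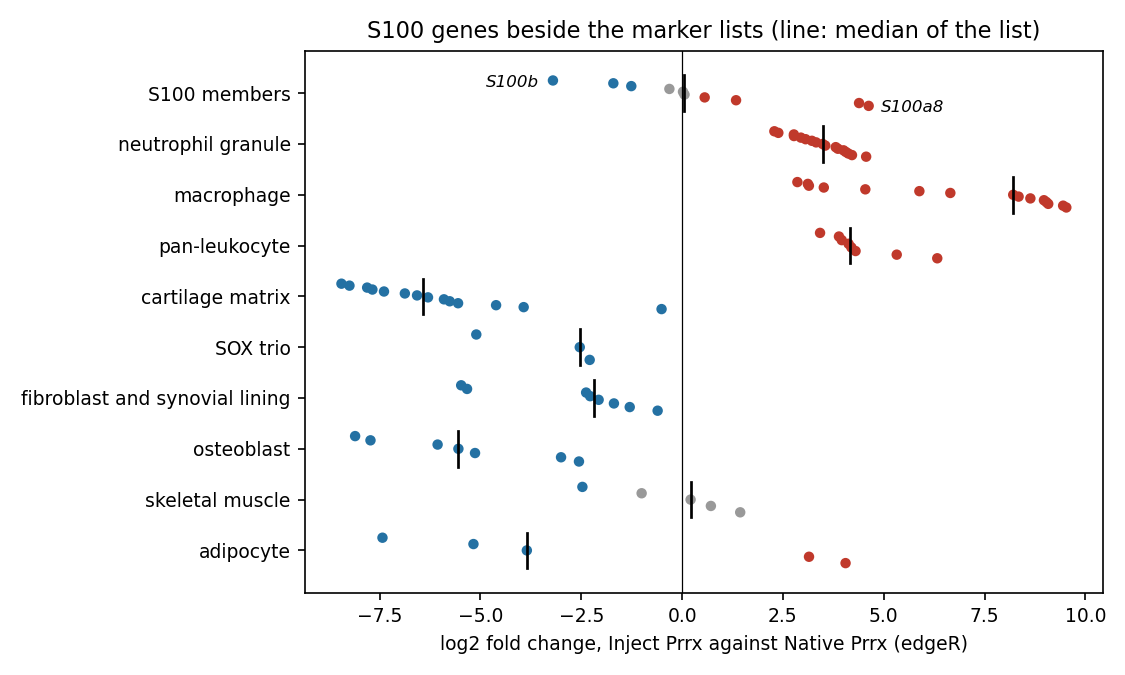
Log2 fold change of the 10 S100 genes and of the genes tested in 9 marker lists (edgeR, Inject Prrx against Native Prrx; red, higher; blue, lower; grey, not called; line, median of the list). *S100a8* and *S100a9* lie within the range of the pan-leukocyte genes, at 4.63 and 4.39, and *S100b* at -3.20 lies above the cartilage median of -6.44.

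Other cell types that express S100 genes gave smaller sums than the neutrophil granule and cartilage matrix genes. Of the Schwann cell and glia genes 2 were higher, 1 lower and 3 not called, their sum was 9.54 to 10.4 TPM in Inject Prrx and 6.09 to 9.89 TPM in Native Prrx, and *Sox10*, their defining factor, had at most 2 and 20 counts. Of the skeletal muscle genes 0 were higher, 1 was lower (*Tnni2*, log2 fold change -2.47) and 4 were not called, with 13.3 to 15.6 TPM and 52.8 to 68.3 TPM, and *Myh1* and *Myh4* had at most 3 counts in any library. Of the adipocyte genes *Fabp4* and *Pparg*, which macrophages also express, were higher by 3.15 and 4.05, and *Adipoq*, *Cfd* and *Cidec* had log2 fold changes of -7.43, -5.17 and -3.85. The adipocyte genes summed to 619 to 646 TPM in Inject Prrx, mostly *Fabp4*, and 363 to 384 TPM in Native Prrx, mostly *Adipoq*. The part of these cell types in the levels of *S100b*, *S100a1* and *S100a4* was not tested.

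The genes whose pattern was most like that of a member were taken by the root mean square difference of centred log2 CPM over the 6 libraries, among 14288 genes. For *S100a8* they were *Camp* (0.09), *Ptafr*, *Arhgap9*, *Hcls1* and *Lyz2* (0.12), with *S100a9* in place 9. For *S100a9* they were *Pla2g7* (0.07), *Ptafr*, *Cd33*, *Lcn2* and *Hcls1* (0.10), with *S100a8* in place 11. For *S100b* they were *Hrct1* (0.09), *Zbed5*, *Phldb1*, *Pygo1* and *Ism1* (0.16). For *S100a1*, which hardly varied, they were *Adrm1* (0.03), *Atp11a*, *Rpl8*, *Vps4a* and *Dpp9* (0.05). With 6 libraries in 2 groups this likeness rests mostly on the size of the difference between the groups.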

How the data were processed

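Bulk RNA-seq of 3 Inject Prrx and 3 Native Prrx samples of sorted Tomato+ cells was analysed from the deposited gene table, with groups and replicate numbers taken from the sample titles. Read filtering (SOAPnuke), alignment (HISAT2, Bowtie2) and quantification (RSEM) were done by the authors. The submitters' processing notes name Bowtie2 2.2.5, RSEM 1.2.12 and the build mm9, so the table's genes were given no coordinates. The deposited values are expected counts, which are not normalized, FPKM and TPM. FPKM deposited by the authors summed to 808701 to 813572 in Inject Prrx and 504768 to 573603 in Native Prrx libraries, so that TPM, which sums to the same total in each, sits lower in Inject Prrx by comparison. Another 6 normalized count columns and 8 group averages were not used, and 0 sample columns were left unmapped.

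Expected counts were rounded (20.6% of values changed) and tested with edgeR 4.0.16 in R 4.3.3 (filterByExpr, TMM, glmQLFit, glmQLFTest, all 6 libraries, no block), with Benjamini-Hochberg adjustment over 14289 genes and a threshold of 0.05. A standard error is the log2 fold change divided by the square root of F. Levels of different genes were compared in TPM only. Ratios and sums over genes were given no test. Alternatives were DESeq2 1.42.0, 3 other normalizations, TMM computed with the top 50 genes by count removed, 2 other filters, the replicate block, each library left out, stricter thresholds, and limma 3.58.1 on log2 FPKM with a pseudocount of 1 or 0.1. TMM without *S100a8* and *S100a9* and limma on log2(TPM + 1) were added after the data were seen. The study used DESeq2. The test was first tried on simulated data, where it missed a limit set beforehand on the recovery of 4-fold changes over all genes. The limit was then set on better expressed genes only, so changes of genes with low counts, such as *S100a3* and *Ager*, are less certain and can go uncalled.

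The 10 genes and all marker and partner lists were chosen with earlier results of these data known. Named genes are the 10, the other S100 genes, all partners, SOX genes and regulators, of each marker list up to 4 with the highest mean TPM, and the 5 genes most like *S100a1*, *S100b*, *S100a8* and *S100a9*. A few more marker genes (*Ptprc*, *Acan*, *Sox10*, *Myh1*, *Myh4*, *Tnni2*, *Adipoq*, *Cfd* and *Cidec* among them) were named after their values were seen. Replicates are mice of the study, and the p-values measure the spread between these samples. Promoter windows come from RefSeq (GRCm38.p6). Figures were drawn with matplotlib 3.10.9.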

Additional observations from a re-analysis of the deposited data

How the results depend on the processing

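*S100a8*, *S100a9*, *S100a11*, *S100b*, *S100a10* and *S100a16* kept their direction and their call in all 19 other fits, which used other scalings, filters, tools and left-out libraries. *S100a6* stayed higher in all 19 but was not called on log2(TPM + 1) (0.14), at an adjusted p of 0.001 or where at least a 2-fold difference (1 on the log2 scale) was asked for (0.56 in both). *S100a1* turned to -0.035 with upper quartile normalization, -0.15 without Native Prrx replicate 1 and -0.35 on log2(TPM + 1). *S100a13* turned to -0.0036 with DESeq2, -0.0081 with RLE, -0.070 with upper quartile normalization, -0.020 with the top 50 genes by count left out of TMM, -0.028 without Inject Prrx replicate 3, -0.14 without Native Prrx replicate 1 (0.096 without replicate 3 was the highest with a library left out) and -0.41 on log2(TPM + 1). The members called lower numbered 3 to 5 with a library left out, 5 without Native Prrx replicate 1, and 6 on log2(TPM + 1). There 2921 genes were higher and 5560 lower, against 4468 and 4333, the median of all genes having moved to -0.31. It moved to 0.16 with library size alone and to 0.20 and 0.24 on log2(FPKM + 1) and log2(FPKM + 0.1). An adjusted p of 0.001 left 2134 higher and 2380 lower genes, and the limit of 1 on the log2 scale left 2756 higher. With CPM in place of TPM the difference of the log2 ratio of myeloid to cartilage members was 5.33 and that of the summed S100 level 19116, against 102850 in TPM and 85920 in FPKM, since CPM is not divided by length.

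With the replicate number as a block 4103 genes were higher and 3920 lower, and 4 members were higher and 3 lower. The numbers do not pair the libraries: same-numbered libraries come from different mice, and their deviations correlated at 0.0129, 0.00221 and 0.0178.

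The counts behind *S100b* in Inject Prrx (139 to 222) and behind *Ager* limit the precision of their changes.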
